A study of Mus musculus with 2 samples.

Results

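The cytochrome P450 genes of families 2 and 3a were followed in the regenerating liver of WT and PPARβ-null (KO) mice. The members were all rows of the expression table whose gene symbol begins with Cyp2 or Cyp3a followed by a subfamily letter and a number, with pseudogenes left out. This gave 57 genes of 15 subfamilies, of the 33224 gene symbols in the table. RNA-sequencing was done on hepatic RNA from male C57BL/6 mice at 48 hr after partial hepatectomy (PH), an operation that removes most of the liver and leaves the rest to regrow. One group was wild type and the other lacked PPARβ, a fatty acid-sensing nuclear receptor encoded by Ppard. Both carried the label of 4 month of age and both had undergone PH, so no liver before PH entered the comparison. The sources used here do not all give the same age. There was 1 library per genotype. No value therefore carries an error between mice, no test across samples could be run, and "higher" or "lower" below describes these 2 libraries only. The number of mice behind each library and the design of the null allele are not given in the sources used here.

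Cytochrome P450 enzymes are heme proteins of the endoplasmic reticulum that insert oxygen into their substrates with electrons passed on by the reductase Por. Families 2 and 3a hold the enzymes that clear most drugs and many environmental chemicals in the liver, and they also oxidise steroids, bile acids and arachidonic acid. Many of the genes arose by tandem duplication and lie in clusters of close paralogs. In the liver many of them are controlled by the nuclear receptors CAR (Nr1i3) and PXR (Nr1i2), by Hnf4a and by the sex-dependent pattern of growth hormone, and several are expressed mainly around the central or the portal vein.

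The promoters of the 7 members that differed by more than 2-fold, and of Cyp3a11, the most abundant member in WT, are shown because they let the members that went in opposite directions be read side by side. Each is the stretch of 250 bases before the annotated start, from RefSeq on GRCm38.p6, written 5′ to 3′ on the strand of the gene. Capitals mark CAAAGTCCA or CAAAGGTCA, which have the form of an Hnf4a-type direct repeat, and TATAAA, the letters of a TATA box, each on either strand and at any distance. The TATAAA letters of Cyp3a11 ended 229 bases before the start, while in Cyp2e1 they ended 26 bases before it. Those of Cyp2d40 and Cyp2c70 lay on the opposite strand, 86 and 24 bases before the start. The members lower in KO are Cyp2c70 (chr19:40187287-40187536, minus strand), Cyp2c55 (chr19:39006769-39007018, plus strand), Cyp2a5 (chr7:26835089-26835338, plus strand) and Cyp2f2 (chr7:27119705-27119954, plus strand). Those higher in KO are Cyp2d40 (chr15:82764123-82764372, minus strand), Cyp2c67 (chr19:39649043-39649292, minus strand) and Cyp2e1 (chr7:140763569-140763818, plus strand). Cyp3a11 is at chr5:145879855-145880104, minus strand.
Cyp2c70: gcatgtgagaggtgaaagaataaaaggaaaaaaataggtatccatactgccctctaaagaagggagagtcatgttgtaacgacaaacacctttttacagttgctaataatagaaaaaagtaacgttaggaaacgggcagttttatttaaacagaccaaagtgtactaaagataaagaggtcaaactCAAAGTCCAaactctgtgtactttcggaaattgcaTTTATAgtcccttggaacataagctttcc
Cyp2c55: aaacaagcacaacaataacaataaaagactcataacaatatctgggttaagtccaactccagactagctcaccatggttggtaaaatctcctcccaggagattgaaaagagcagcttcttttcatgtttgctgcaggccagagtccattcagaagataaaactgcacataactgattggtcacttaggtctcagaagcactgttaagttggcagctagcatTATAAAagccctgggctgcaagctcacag
Cyp2a5: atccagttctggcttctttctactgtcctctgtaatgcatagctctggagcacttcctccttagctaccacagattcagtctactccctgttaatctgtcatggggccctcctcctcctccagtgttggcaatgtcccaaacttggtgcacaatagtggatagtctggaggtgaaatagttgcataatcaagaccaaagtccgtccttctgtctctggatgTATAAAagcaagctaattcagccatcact
Cyp2f2: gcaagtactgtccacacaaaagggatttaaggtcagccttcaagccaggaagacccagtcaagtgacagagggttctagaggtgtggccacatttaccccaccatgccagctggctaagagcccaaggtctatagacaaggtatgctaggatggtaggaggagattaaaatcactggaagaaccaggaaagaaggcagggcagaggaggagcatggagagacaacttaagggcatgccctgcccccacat
Cyp2d40: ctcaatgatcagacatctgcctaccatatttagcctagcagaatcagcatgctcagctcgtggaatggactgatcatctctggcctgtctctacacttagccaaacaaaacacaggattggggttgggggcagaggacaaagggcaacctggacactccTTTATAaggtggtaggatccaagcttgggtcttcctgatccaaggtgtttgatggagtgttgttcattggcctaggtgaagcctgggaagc
Cyp2c67: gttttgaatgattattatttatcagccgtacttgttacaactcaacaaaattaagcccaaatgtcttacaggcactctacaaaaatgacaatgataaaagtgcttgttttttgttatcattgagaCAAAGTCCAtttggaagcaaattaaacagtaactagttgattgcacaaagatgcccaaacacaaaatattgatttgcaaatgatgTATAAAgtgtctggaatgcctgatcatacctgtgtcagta
Cyp2e1: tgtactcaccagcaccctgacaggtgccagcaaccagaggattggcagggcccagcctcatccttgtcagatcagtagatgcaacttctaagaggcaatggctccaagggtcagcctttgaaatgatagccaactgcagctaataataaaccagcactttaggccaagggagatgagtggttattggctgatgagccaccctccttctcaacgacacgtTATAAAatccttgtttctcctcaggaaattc
Cyp3a11: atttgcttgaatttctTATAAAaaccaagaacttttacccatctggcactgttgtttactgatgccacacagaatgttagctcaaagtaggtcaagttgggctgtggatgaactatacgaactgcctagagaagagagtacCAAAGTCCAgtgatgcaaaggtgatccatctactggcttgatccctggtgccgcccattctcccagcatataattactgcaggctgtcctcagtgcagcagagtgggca

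CAAAGTCCA was found in the promoters of 10 of the 50 members with a RefSeq promoter, against 0.384% of all 32851 promoters. The 10 were Cyp2c40, Cyp2c65, Cyp2c67, Cyp2c68, Cyp2c69, Cyp2c70, Cyp3a11, Cyp3a16, Cyp3a41a and Cyp3a41b, all from the Cyp2c and Cyp3a clusters. Promoters of tandem copies are not independent observations, for this word and for those below. Among the 10 were Cyp2c70, the member furthest below WT, and Cyp2c67, which was higher in KO, so the word did not go with 1 direction. In Cyp2c70 it ended 56 bases before the start and in Cyp2c67 117 bases before it. CAAAGGTCA was found in Cyp3a25, Cyp3a57 and Cyp3a59, against 0.426% of all promoters. TATAAA was found in 23 of the 50, or 46%, against 12.4% of all promoters, and Cyp2f2 held none of the words set in capitals within its 250 bases. The nuclear receptor half-site AGGTCA, which overlaps the end of CAAAGGTCA, was in 15 of the 50 members, or 30%, and in 14% of all promoters. Of the promoters shown it was in those of Cyp2c70, Cyp2f2 and Cyp3a11. The Hnf1-type half-site GTTAAT was in 6 members, or 12%, and in 6.43% of all promoters. The D-box word TTANGTAA of the circadian PAR bZip factors was in Cyp2c38 alone among the members and in 2.06% of all promoters.

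The deposited values are FPKM, fragment numbers scaled to transcript length and to the depth of the library, so levels of different genes are compared per length. From the lowest values of single-exon genes, a single fragment on 1 kb of transcript came to about 0.0182 FPKM (WT) and 0.0174 FPKM (KO), or some 54.9 and 57.5 fragments for each FPKM and kb. The least covered of the members described in full had about 168 fragments in a library. Ppard itself was at 2.67 FPKM in WT and 2.42 FPKM in KO. This value of the whole locus does not tell the libraries apart, and KO stands for the library so labelled. The 11723 genes whose mean FPKM reached 1 had a median log2 KO/WT of -0.24, taken after adding 0.1 FPKM, and each list below is to be read against this shift. Hepatocyte markers were high in both libraries, led by Apoa2, Serpina1a and Fgb. In KO 8 of 11 were higher, against 24.4% of all genes, while Cps1 and Ass1 were more than 2-fold lower, against 8.69%. The 11 added up to 23893 FPKM (WT) and 25287 FPKM (KO). Markers of other cells of the liver were lower in KO, with KO/WT ratios of the summed FPKM of 0.669 for macrophages (Clec4f, C1qb, C1qa and others, 7 of 8 lower), 0.714 for endothelial cells (Clec4g, Stab2, Pecam1 and others, 6 of 6) and 0.373 for stellate cells (Col3a1, Reln, Col1a1 and others, 7 of 7). In each of these lists 1 gene lay above the median of all genes, and 8866 of all 11723 genes were lower in KO. The ratio was 0.863 for 5 cholangiocyte markers led by Spp1, Sox9 and Krt19, of which Spp1 gave most of the sum. Krt19 and Krt7 were 3.08-fold and 3.11-fold lower, Krt7 at a mean FPKM of only 0.739. Of the 3 cholangiocyte markers whose mean FPKM reached 1, 2 (Spp1 and Sox9) lay above the median of all genes. The ratio of the summed FPKM was 0.828 for erythroid genes led by Hba-a1, Hbb-b1 and Hba-a2. It was 0.537 for neutrophil markers, where S100a8 and S100a9 led, Elane was near 0, and Ly6g and Mpo were listed at 0 in both libraries. No lymphocyte marker (Ptprc, Cd79a, Nkg7 and others) reached a mean FPKM of 1, and 4 of 5 kidney markers were listed at 0 in both libraries, with Slc34a1 near it. Of the intestinal markers, Cdx2, Sis and Vil1 were at or near 0, while Lgals4 and Fabp2 were higher in KO, at 214 against 129 and 51.2 against 24.4. In whole liver, fewer cells of a type and less RNA per cell cannot be told apart, and the part of cell make-up in the values below was not tested.

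Of the 57 members, 37 had a mean FPKM of at least 1, and most values below are those of these 37. The other 20 had mean FPKM of at most 0.636, and 6 of them, Cyp2b19, Cyp2b23, Cyp2j11, Cyp2j12, Cyp2j13 and Cyp2w1, were listed at 0 in both libraries. In all, 16 members reached an FPKM of 100 in at least 1 library. The FPKM of all members added up to 10220 in the WT library and to 9925 in the KO library, which is a KO/WT ratio of 0.971. The sum hid large shifts in opposite directions. Cyp3a11, the main Cyp3a enzyme of mouse liver and a PXR target, was at 3926 FPKM in WT and 2202 FPKM in KO and gave 38.4% of the summed FPKM in WT but 22.2% in KO. Cyp2e1, which oxidises ethanol and acetaminophen, had 1039 in WT and 2319 in KO, and its share went from 10.2% to 23.4%, the highest of all members in KO. Cyp2c29, an arachidonic acid epoxygenase, was at 1276 FPKM in WT and 1715 FPKM in KO, or 12.5% and 17.3% of the sum. These 3 genes together gave 61.1% of the summed FPKM in WT and 62.8% in KO. Without Cyp3a11 the other members summed to 6294 in WT and 7723 in KO, giving a ratio of 1.23.

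**Figure D1:**
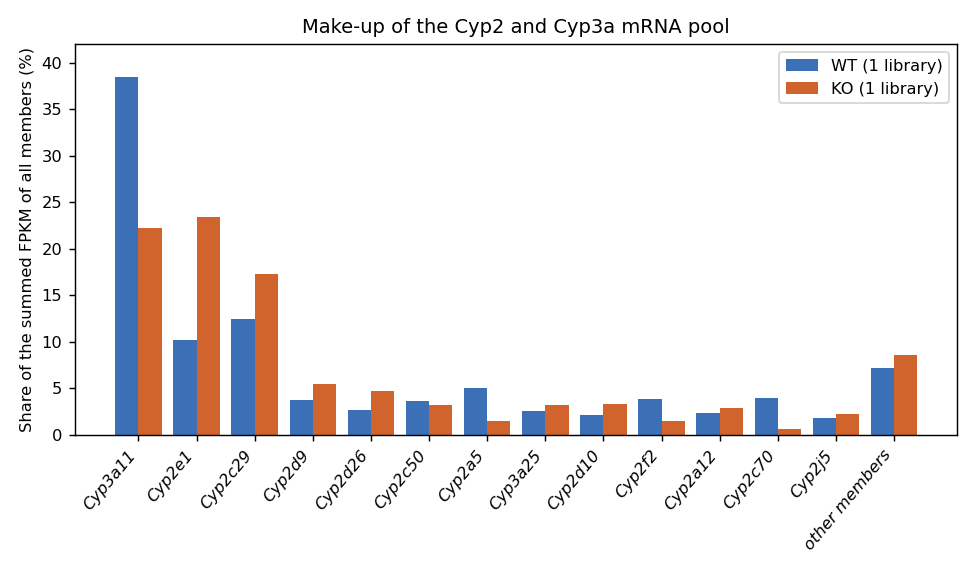
Share of the summed FPKM of all 57 members (y axis, %) held by the 13 members that ranked among the 10 highest in either library and by the other 44 together, in the WT and KO libraries (1 library each, so there are no error bars). Cyp3a11 goes from 38.4% in WT to 22.2% in KO and Cyp2e1 from 10.2% to 23.4%, Cyp2c70 goes from 3.99% to 0.638%, and the other 44 members hold 7.14% and 8.62%.

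Of the 37 members, 21 were higher and 16 lower in KO, where 24.4% of all genes at this level were higher. The split depended on how the libraries were scaled. With equal upper quartiles 24 of 37 were higher, and with the median of all genes set to 0 the count was 27, since Cyp2c39, Cyp2c50, Cyp2c54, Cyp2d22, Cyp2j6 and Cyp3a59 lay between that median and equal levels. The median log2 KO/WT of the 37 was 0.18, which is 0.42 above the median of all genes. Of the 15 members whose mean reached 100 FPKM, 9 were higher in KO, against 36.1% of all genes that abundant. More than 2-fold lower were 3 of these 15, against 6.33% of all genes that abundant, and 1 was more than 2-fold higher, against 4.94%. More than 2-fold lower in KO were 4 of the 37 members, or 10.8%, near the 8.69% of all genes. More than 2-fold higher were 3 of 37, or 8.11%, against 1.77% of all genes. At 1.5-fold the counts were 9 lower, where 19.9% of all genes passed, and 8 higher, where 4.2% did. Intervals given with a ratio are 95% exact binomial intervals from the estimated fragments. They cover counting error only, not the difference between mice, and for 4 of the 37 members they included 1.

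**Figure D2:**
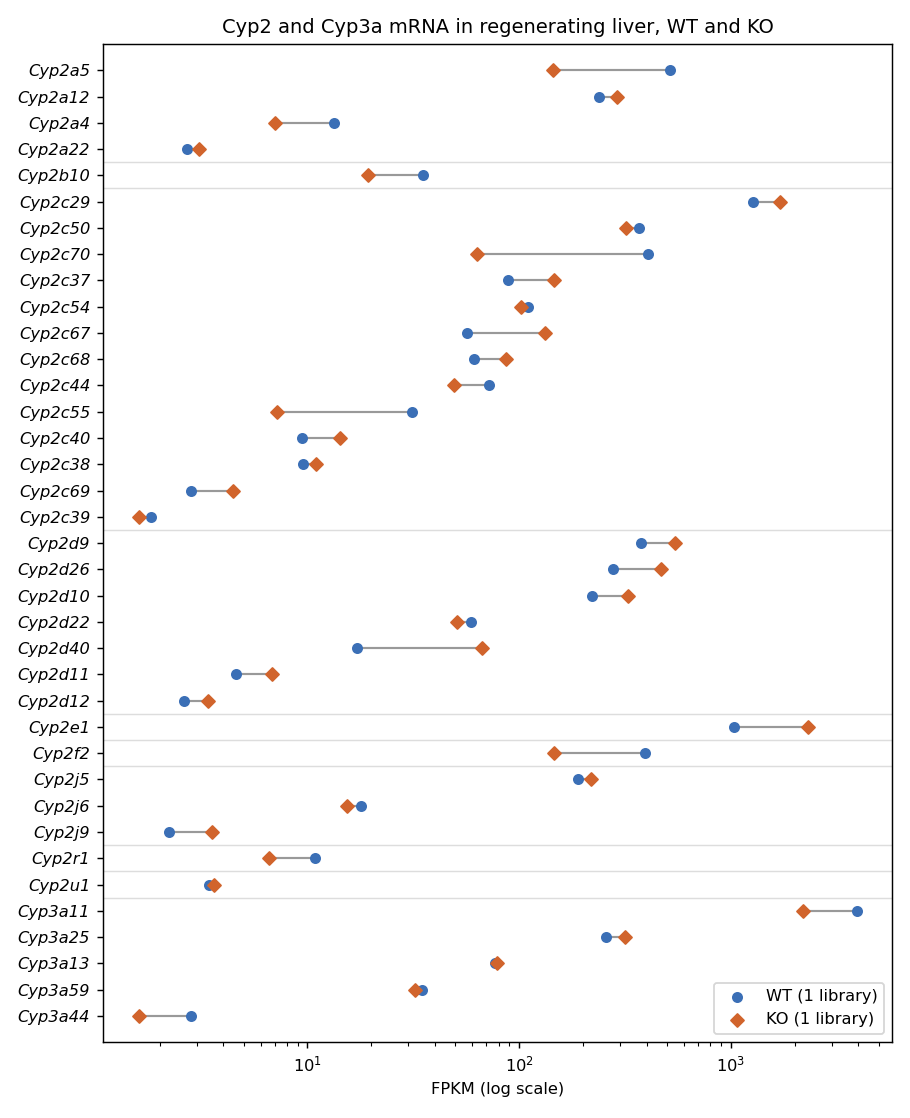
FPKM (x axis, log scale) of the 37 members with a mean FPKM of at least 1 in the WT (circles) and KO (diamonds) libraries, 1 library each, grouped by subfamily and ordered by mean FPKM within it. The widest gaps are those of Cyp2c70, Cyp2c55, Cyp2d40 and Cyp2a5, and most other pairs lie within 2-fold.

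The Cyp2c subfamily was the largest, with 13 of its 15 genes above the filter, of which 7 were higher and 6 lower in KO. It held the 2 members furthest below WT and 1 of the 3 that were more than 2-fold higher in KO. Cyp2c70, which makes the muricholic acids of mouse bile, was at 408 FPKM in WT and 63.3 FPKM in KO, which is a WT/KO ratio of 6.44 (6.27 to 6.62). Its locus lies on chromosome 19 from 40227843 to 40261841 on NCBI37 (mm9), the build of all loci given here. Cyp2c55, known as a CAR and PXR target that is also expressed in the gut, had 31.2 in WT and 7.19 in KO, giving a ratio of 4.34 (4.02 to 4.69). Of the 37, none was further below WT than this pair, and neither transcript shares a stretch of 100 bases with a protein-coding transcript of another gene. Cyp2c67 was at the other end, with 56.8 in WT and 132 in KO, which is a KO/WT ratio of 2.33 (2.25 to 2.4). Its paralogs Cyp2c68 (61.4 and 86.4), Cyp2c40 (9.44 and 14.2) and Cyp2c69 (2.82 and 4.46) were each higher in KO by less than 2-fold. Cyp2c37 was also higher, at 88.7 in WT and 147 in KO. Its close neighbours Cyp2c50 (367 and 319) and Cyp2c54 (110 and 102) were slightly lower in KO, though above the median of all genes. Cyp2c44, an epoxygenase, had 71.9 and 49.4. Cyp2c38 (9.5 and 10.9) and Cyp2c39 (1.82 and 1.61) were near equal, the latter lower in KO but above the median of all genes. Over the whole subfamily the FPKM added up to 2494 (WT) and 2652 (KO), and Cyp2c29 alone made up 51.2% of the first and 64.7% of the second.

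In the Cyp2d subfamily 6 of the 7 genes above the filter were higher in KO, against 24.4% of all genes. All 7 lay above the median of all genes. Cyp2d9, a male-biased testosterone hydroxylase, was at 378 FPKM in WT and 542 FPKM in KO, which is a KO/WT ratio of 1.43 (1.42 to 1.45). Cyp2d26 had 278 and 468, and Cyp2d10 had 220 and 327. The low copies Cyp2d11 (4.6 and 6.79) and Cyp2d12 (2.6 and 3.37) went the same way. Cyp2d40 (chromosome 15, 82590149 to 82594613) stood out with 17.1 in WT and 66.9 in KO, giving a ratio of 3.92 (3.67 to 4.19), and it shares no stretch of 100 bases with a protein-coding transcript of another gene. Pseudogene transcripts were not searched. Cyp2d22, the exception, had 59.3 in WT and 51.1 in KO, and it was above the median of all genes. The sum of the subfamily was 959 in WT and 1464 in KO, giving a ratio of 1.53, and the share of the members' summed FPKM went from 9.39% to 14.8%. The median log2 KO/WT was 0.55, and 0.56 without Cyp2d9, Cyp2d10 and Cyp2d11, which share more than 10% of their sequence windows with other protein-coding genes.

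The Cyp2a, Cyp2b and Cyp2f genes, which share a cluster on chromosome 7, were split. Cyp2a5, the coumarin hydroxylase, was at 518 FPKM in WT and 145 FPKM in KO, which is a WT/KO ratio of 3.57 (3.51 to 3.64). In order of abundance it ranked 4 among all members in WT and 13 in KO. Cyp2a4, a testosterone hydroxylase and its close relative, had 13.4 and 7.04, a ratio of 1.9. Cyp2a12, which hydroxylates steroids and bile acids, was slightly higher in KO, at 238 in WT and 290 in KO, and held 65.1% of the subfamily's FPKM in KO, where Cyp2a5 had held 67.1% in WT. Cyp2a22 had 2.69 and 3.06, and its interval included 1. The rows of Cyp2a5 and Cyp2a22 carry the same locus, 27617514 to 27737492, which is wider than either annotated gene. Cyp2f2, which bioactivates naphthalene and is a periportal P450 of the liver, had 394 in WT and 146 in KO, giving a ratio of 2.71 (2.66 to 2.76). Cyp2b10, the classical target of CAR, had 35.1 in WT and 19.3 in KO, giving a ratio of 1.82 (1.73 to 1.92). Its relatives Cyp2b9 and Cyp2b13, which are female-biased in mouse liver, were listed at 0 in WT and at 0.523 and 0.103 in KO, or about 56.4 and 11.1 fragments. No fold is given for them, since the WT value is an exact 0.

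In the Cyp3a subfamily 5 of 9 genes were above the filter, and the summed FPKM of all 9, at 4300 (WT) and 2632 (KO), was mostly Cyp3a11, at 91.3% and 83.7%. The WT/KO ratio of Cyp3a11 was 1.78 (1.77 to 1.79), inside the 2-fold line. Cyp3a44, a female-biased gene, had 2.83 in WT and 1.59 in KO, giving a ratio of 1.77. Whether reads of the far more abundant Cyp3a11 entered its value was not tested. The other abundant genes did not follow. Cyp3a25 had 258 and 316 over its 2 rows, Cyp3a13 had 77.1 and 78.4, and Cyp3a59 had 34.6 and 32.3, which is above the median of all genes. The median log2 KO/WT of the 5 was -0.10, and it turned to 0.14 relative to the median of all genes and to 0.10 with equal upper quartiles. Below the filter, Cyp3a16, Cyp3a41a and Cyp3a41b had FPKM of 0.754, 0.45 and 0.423 in WT and 0.519, 0.207 and 0.195 in KO. Cyp3a41a and Cyp3a41b share 88.4% and 88.2% of their 100-base windows with each other, so their values cannot be separated.

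The remaining subfamilies had few expressed genes. Cyp2e1 (chromosome 7, 147949638 to 147960874) is the only gene of its subfamily, and its KO/WT ratio was 2.23 (2.22 to 2.25). Of the Cyp2j genes, which encode epoxygenases, Cyp2j5 was at 190 FPKM in WT and 217 FPKM in KO, Cyp2j6 had 17.8 and 15.3, which is above the median of all genes, and Cyp2j9 had 2.22 and 3.54. The other 4 Cyp2j genes were at or near 0. Cyp2r1, a vitamin D hydroxylase, had 10.8 in WT and 6.58 in KO, which is a WT/KO ratio of 1.65 (1.49 to 1.82). Cyp2u1, a fatty acid hydroxylase, had 3.42 and 3.62, and its interval included 1. Of the members below the filter, Cyp3a16, Cyp2g1 and Cyp2s1 had the highest means, and Cyp2g1, a P450 of the nasal mucosa, had 0.634 in WT and 0.261 in KO.

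**Figure D3:**
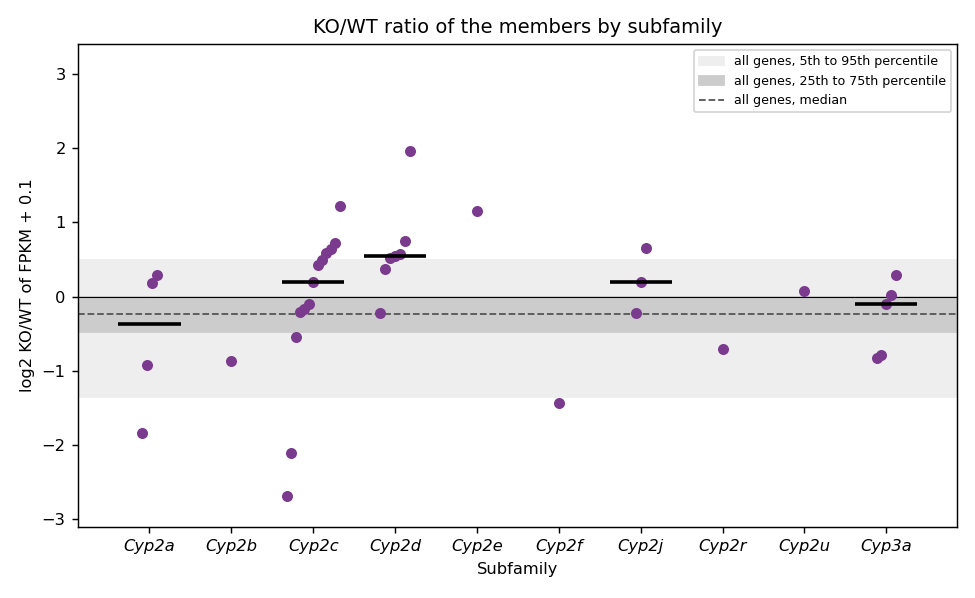
Log2 KO/WT of FPKM after adding 0.1 (y axis) of the 37 members by subfamily (x axis), 1 point per gene, with a black line at the median of subfamilies of at least 3 genes. The dashed line is the median of all 11723 genes at -0.24, and the grey bands run from the 25th to the 75th and from the 5th to the 95th percentile of them. The bands are of single genes and give no test of a subfamily's median. Of the medians drawn, that of Cyp2d is the highest at 0.55 and that of Cyp2a the lowest at -0.37.

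Position in the clusters was not used to choose the members, and 50 of the 57 lie in 5 clusters with gaps under 1 Mb. In the Cyp2c cluster of chromosome 19, 14 genes over 1180 kb, the genes furthest below WT were the first, Cyp2c55, and the last, Cyp2c70. Between them Cyp2c67, Cyp2c68, Cyp2c40, Cyp2c69 and Cyp2c37 followed each other, and all 5 were higher in KO. Cyp2c70 lies 38.9 kb from Cyp2c50, which was within 1.15-fold of WT. In the cluster of chromosome 7, Cyp2a12, higher in KO, lies between Cyp2a5 and Cyp2f2, both more than 2-fold lower. In the Cyp2d cluster of chromosome 15 the genes from Cyp2d11 to Cyp2d26 that passed the filter were all higher in KO, against 24.4% of all genes. Of these, Cyp2d9, Cyp2d10 and Cyp2d11 share more than 10% of their sequence windows with other protein-coding genes. In the Cyp3a cluster of chromosome 5, Cyp3a16, Cyp3a41b, Cyp3a41a, Cyp3a44 and Cyp3a11 followed each other and were all lower in KO, the first 3 at under 1 FPKM. The next gene, Cyp3a25, was higher. Of all 11723 genes above the filter, 8866 were lower in KO, and the interval of Cyp3a16 included 1. Neighbours that share sequence are not independent observations.

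**Figure D4:**
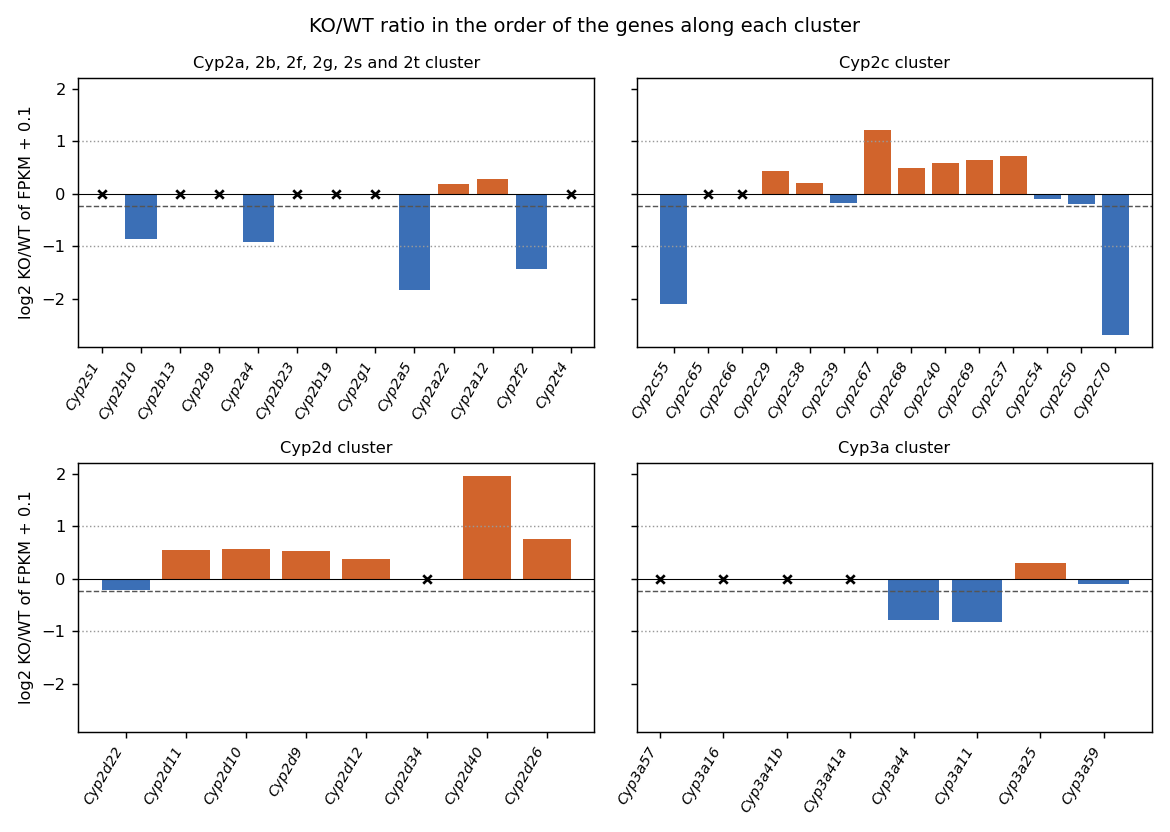
Log2 KO/WT of FPKM after adding 0.1 (y axis) of the genes of 4 clusters in their order along the chromosome (x axis, not to scale), with orange bars above and blue bars below equal levels. Crosses are genes under a mean FPKM of 1, dotted lines mark 2-fold and the dashed line is the median of all genes. Cyp2c55 and Cyp2c70 at the ends of the Cyp2c cluster reach -2.10 and -2.69, and 6 of the 7 Cyp2d bars point up.

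Close paralogs share reads, so the share of each member's longest transcript that also occurs in another gene was measured by exact matches. Stretches with mismatches, which reads may also fail to tell apart, were not counted. Of the 57 members, 31 had at least 1 window of 100 bases, the read length, that also occurs in a protein-coding transcript of another gene. Among the 37, 8 shared more than 10% of their windows. The shares were 44.1% for Cyp2c40, 33.6% for Cyp2c69, 23.7% for Cyp2c67, 19.8% for Cyp2c68, 14.9% for Cyp2d10, 12.2% for Cyp2d11, 11.3% for Cyp2a4 and 10.2% for Cyp2d9. Of these 8 genes 7 were higher in KO. Without them 14 of 29 were higher in KO, or 48.3%, and the median log2 KO/WT turned from 0.18 to -0.10, which is still above the -0.24 of all genes. After centring on the median of all genes, 20 of the 29 were higher. The value of a low copy such as Cyp2c69 beside an abundant one is therefore uncertain, while Cyp2c70, Cyp2c55, Cyp2f2, Cyp2d40 and Cyp2e1 shared no window with those transcripts.

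**Figure D5:**
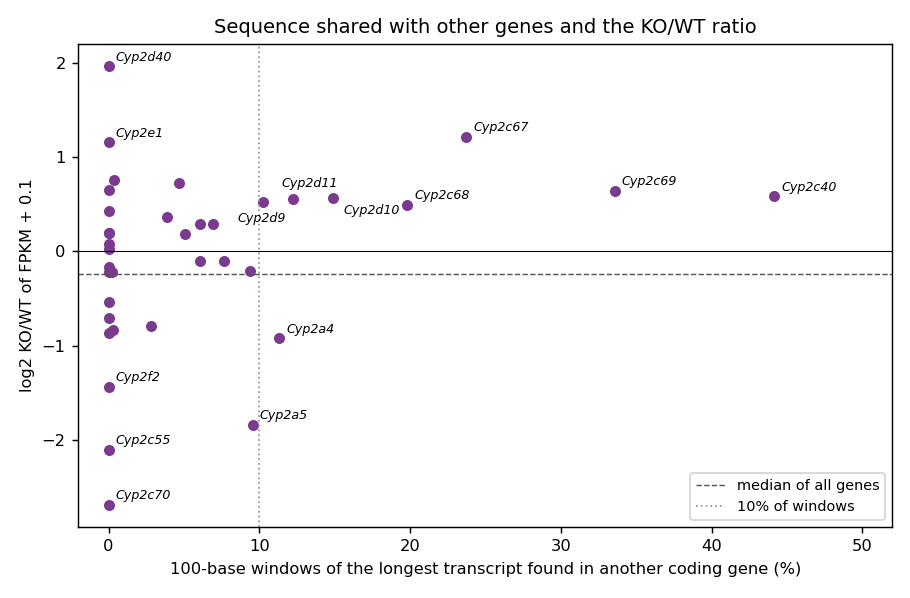
Share of 100-base windows of the longest transcript that occur in a protein-coding transcript of another gene (x axis, %) and log2 KO/WT of FPKM after adding 0.1 (y axis) of the 37 members, 1 point per gene. Right of the dotted line at 10% lie 8 genes, and 7 of them are above 0, while 5 of the 7 genes past 2-fold are at 0% of shared windows.

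Lists of members with a known site or sex of expression held genes on both sides of equal levels. The counts are to be read against all genes above the filter. Of those, 24.4% were higher in KO, 1.77% more than 2-fold higher and 8.69% more than 2-fold lower. Of 7 members known as pericentral, 3 were higher in KO (Cyp2e1, Cyp2c29 and Cyp2c37) and 4 lower (Cyp2a5, Cyp3a11, Cyp2c50 and Cyp2c54, the last pair above the median of all genes). Their FPKM added up to 7324 (WT) and 6949 (KO). The only periportal member listed was Cyp2f2. Of 9 members known to oxidise arachidonic acid, 6 were higher in KO and 1, Cyp2e1, more than 2-fold. Of 11 female-biased members, 6 were above the filter, and 2 of these, Cyp2c40 and Cyp2c69, were higher in KO, while none of the 6 passed 2-fold. Cyp2d9 was the male-biased member. Among 7 other male-biased liver genes 1, Mup20, was more than 2-fold lower in KO and 2, Elovl3 and Cyp4a12a, more than 2-fold higher. In WT and KO, Mup20, a pheromone carrier, had 3221 and 370.3 FPKM. Elovl3, a fatty acid elongase, had 41.5 and 217, and Cyp4a12a, a fatty acid hydroxylase, had 48.5 and 122.8. Its paralog Cyp4a12b had 34.3 and 31.2. Reads may be split between Cyp4a12a and Cyp4a12b, and sequence shared by these other male-biased genes was not measured. Of 7 other female-biased genes only Acot3 passed the filter, with 1.28 in WT and 2.4 in KO.

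Most partners and regulators of these enzymes lay within 2-fold, as did 10497 of all 11723 genes above the filter. Por, the reductase that feeds electrons to every member, was at 181 FPKM in WT and 272 FPKM in KO. The other 4 electron transfer genes measured were lower in KO, as were 8866 of all 11723 genes above the filter. These 4 were Cyb5b (148 and 78.6), Cyb5r3 (161 and 96.7), Pgrmc1 (637 and 492) and Pgrmc2 (16 and 14.4), of which Pgrmc2 lay above the median of all genes. None of the 5 passed 2-fold, where 8.69% of all genes were more than 2-fold lower and 1.77% more than 2-fold higher. Of 12 genes of heme synthesis and breakdown, 5 were higher in KO, against 24.4% of all genes, and 8 lay above the median of all genes. Only 1, the biliverdin reductase Blvra, was more than 2-fold lower, at 10.9 in WT and 5.37 in KO, where 8.69% of all genes were. Alas1, which sets the rate of heme synthesis, had 180 and 145.

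Of 13 receptors and factors of P450 control, 2 were more than 2-fold higher in KO, or 15.4% against 1.77% of all genes, and none was more than 2-fold lower, against 8.69%. Nr1i3, which encodes CAR, was at 35.6 FPKM in WT and 75.6 FPKM in KO, and the repressor Nr0b2 had 15.4 and 34.2. Nr1i2, which encodes PXR, had 21.2 and 28.5, and its partner Rxra had 91.2 and 114. Hnf4a (172 and 193), Ppara (24.4 and 25.2) and Nr1h4 (31.3 and 30.6), the bile acid receptor, were near equal. Ahr (15.8 and 13.1), Arnt (9.59 and 8.87), Nr3c1 (12 and 10.02), Cebpa (60.1 and 45.8) and Cebpb (75.8 and 59.8) were lower in KO by at most 1.31-fold, and Arnt was above the median of all genes. The CAR target Cyp2b10 had the lower value in the library with the higher Nr1i3. Of 17 other CAR and PXR targets above the filter 7 were more than 2-fold lower in KO, or 41.2% against 8.69% of all genes, and none more than 2-fold higher, against 1.77%. The 7 were Ces2a (200 and 69.6), Ces2c (46.5 and 18.2), Slco1a4 (30.7 and 14.7) and the glutathione transferases Gstm1 (2034 and 742), Gstm3 (1872 and 195), Gsta1 (123.1 and 0.485) and Gsta2 (80.9 and 2.28). These transferases belong to a family of which 10 of 19 genes above the filter were more than 2-fold lower in KO. The part of CAR or PXR in the 41.2% was not tested. Gsta1 and Gsta2 are close paralogs whose reads may be split between them. Por and Alas1 belong to this list too, and the rows of Gstm1 and Gstm3 also name other genes. Of 9 genes of growth hormone signalling and sex-biased control above the filter, none passed 2-fold, and Bcl6, with 6.42 in WT and 3.42 in KO, was nearest to it.

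Other enzyme families of the liver were set beside the members. Of 13 Cyp4 genes, many of which hydroxylate fatty acids, 9 were higher in KO, against 24.4% of all genes, and 4 of these were more than 2-fold higher, or 30.8% against 1.77% of all genes. More than 2-fold lower were 2, or 15.4% against 8.69%, and the median of the 13 log2 KO/WT was 0.30. Of 11 P450 genes of other families 3 were more than 2-fold lower in KO, or 27.3% against 8.69% of all genes, none was more than 2-fold higher, and the median was -0.57. The glutathione, glucuronosyl and sulfo transferases, which act after the P450 enzymes on many of the same compounds, had a median of -0.48. Of 42 such genes 12 were more than 2-fold lower in KO, or 28.6% against 8.69% of all genes, none was more than 2-fold higher, and several of their symbols share 1 locus. Of these 12 genes 10 were among the 19 glutathione transferases, whose median was -1.39. The median of the 37 members of families 2 and 3a, 0.18, lay between that of Cyp4 and those of the other families. These medians are descriptions of 1 library per genotype, and whether the families differ was not tested.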

How the data were processed

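Hepatic RNA of 1 WT and 1 KO liver sample was sequenced with reads of 100 bases, called paired end in the labels and single end in the study's methods. The authors aligned reads with TopHat 2.0.0 to NCBI37 (mm9), assembled transcripts with Cufflinks 1.3.0 and took FPKM of each locus from Cuffdiff, and these deposited FPKM were used here. The table's columns of the authors' own comparison (log2 fold change, statistic, p-value, q-value and call) were not used. How reads that map to several places were shared out is not given in the sources used here.

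The table held 38016 loci, of which 21 marked HIDATA were left out, among them none of the members. Another 2302 loci without a symbol were not used. Rows naming several symbols, 850 in all, gave each symbol their value, and rows of 1 symbol were summed. Locus starts were counted from 0 in the table, since adding 1 gave the GENCODE vM1 start for 21455 of 30225 genes, and are printed counted from 1. Ratios were taken from the deposited FPKM, and 0.1 FPKM was added as a pseudocount before taking log2, so changes of low genes are understated. The filter was a mean FPKM of at least 1. Depth was estimated from the step at which low values of single-exon genes of at least 500 nt piled up (351 genes in WT, 336 in KO). Estimated fragments are FPKM times the longest GENCODE transcript over that step, and the intervals treat fragments as independent. Windows of 100 bases were compared with all GENCODE vM1 protein-coding transcripts, and only exact matches were counted. Promoters came from RefSeq on GRCm38.p6 for 50 of the 57 members. The tools were pandas 2.3.3 and numpy 2.4.6 for the tables, scipy 1.17.1 for the intervals and matplotlib 3.10.9 for the plots, under Python 3.11.15, and the steps were tested on simulated data.

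The members and gene lists were chosen with earlier results of these data known. Genes named were every member that reached 1 FPKM in a library, the 3 next members by mean FPKM, the electron transfer partners and receptors in full, list genes past 2-fold and the 3 most abundant genes of each marker list. Alas1, other marker genes, Acot3, Bcl6 and members at 0 were named after their values were seen. Alternatives covered scaling, filter, pseudocount, fold, row handling and shared sequence.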

Additional observations from a re-analysis of the deposited data

How the results depend on the processing

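No paired analysis was possible because each genotype has 1 library, and for the same reason no library could be left out. The counts of 4 members more than 2-fold lower and 3 more than 2-fold higher in KO were the same under each scaling, pseudocount and row handling tried and with the filters at 10 FPKM on the mean and at 1 FPKM in both libraries. Without a filter they were 8 and 7 of 51 members above 0, where low values enter, and at 1.5-fold 9 and 8 of 37. Leaving out the members that share over 10% of their windows, chosen after seeing the data, gave 4 and 2 of 29. The median log2 KO/WT of the members ranged from 0.0780 without a filter to 0.42 after centring, except that leaving out the sharing members turned it to -0.10. That alternative also turned the Cyp2a median from -0.37 to 0.18 and the Cyp2c median from 0.20 to -0.17, by its construction, since it removes Cyp2a4 and 4 Cyp2c genes. The Cyp3a median of -0.10 turned to 0.10 with equal upper quartiles and to 0.14 after centring. The Cyp2d median stayed above 0 under each alternative, from 0.52 to 0.79. With a filter at 10 FPKM the Cyp2j genes were too few for a median.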

Other observations

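The pseudogene Cyp2d37-ps, left out of the members by the rule, has 2 rows on chromosome 15, at 5.37 (WT) and 10.7 FPKM (KO) in the first and 17.5 and 23.6 FPKM in the second. Both were higher in KO, as were 6 of the 7 Cyp2d genes. Sequence that Cyp2d37-ps shares with the Cyp2d genes was not measured, and whether reads of those genes entered its values was not tested. Cyp2j7-ps was listed at 0 in both libraries.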
